A study of Homo sapiens with 6 samples.

Results

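The genes studied here are the cytosolic aminoacyl-tRNA synthetases and the targets of the transcription factor ATF4. They were picked by gene symbol, by a rule that uses no measured value, though with earlier results of these data known. They number 46 of the 60591 genes in the deposited count table. By role they comprise 19 aminoacyl-tRNA synthetases, 10 enzymes of amino acid and one-carbon synthesis, 6 amino acid transporters and 11 stress regulators and effectors. All 46 symbols were in the table, and 45 had enough counts to be tested. The member left out was CBS, which turns homocysteine and serine into cystathionine and had 9 counts over the DMSO libraries and 4 over the TPA libraries. CBS also has a near-identical copy, CBSL, with 10 counts in all, so reads could be split between them.

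RNA was sequenced from KYSE150, an established human cell line of esophageal squamous cell carcinoma (ESCC), in 3 TPA and 3 DMSO libraries. TPA is a phorbol ester that mimics diacylglycerol and activates protein kinase C. The TPA cells spent a night without serum and then received 10 ng/ml TPA for 24 h. The labels carry that same text for the DMSO cells, and how much DMSO, the solvent control, they received and for how long were points not given in the sources used here. The labels do not state separate cultures for the libraries of a group. The p-values therefore describe the spread between these libraries only, and that spread may be technical.

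ATF4 is the transcription factor of the integrated stress response: when kinases that sense amino acid shortage, unfolded protein, heme shortage or double-stranded RNA phosphorylate the initiation factor eIF2, general translation falls while ATF4 messenger RNA is translated more. ATF4 pairs with C/EBP and AP-1 partners at C/EBP-ATF response elements and is known to raise genes that make, import and charge amino acids. Aminoacyl-tRNA synthetases join each amino acid to its tRNA, and several of the cytosolic ones are textbook ATF4 targets.

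The element's core, TGATGNAA on either strand (TTNCATCA when read from the other), was searched in RefSeq promoter windows of GRCh38.p14 that run from 250 bases before to 50 bases after a start site. Of the 46 members 39 had a window, and 14 of these (35.9%) held the core, against 4.46% of the 27305 genes in that table. Counted by window, 23.7% of the 59 member windows held it, against 3.62% of all 35116. Because the members were picked as synthetases and ATF4 targets, these shares are no independent test of the element. The 7 members without an entry were LARS1, VARS1, YARS1, PSPH, SHMT2, PYCR1 and NUPR1. A match is a description of letters and not a bound site. The sequences below show the core in capitals, 5′ to 3′ on the strand of the gene, for 5 members that rose in the blocked fit described further on (the first 5) and for 2 further members, ASNS as a textbook target and NARS1 as a synthetase that did not pass.
MARS1 (chr12:57488050-57488085, plus strand): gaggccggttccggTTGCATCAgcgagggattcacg
CARS1 (chr11:3057404-3057439, minus strand): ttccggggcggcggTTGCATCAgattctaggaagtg
GARS1 (chr7:30594831-30594866, plus strand): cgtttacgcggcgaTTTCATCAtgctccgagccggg
CHAC1 (chr15:40953248-40953283, plus strand): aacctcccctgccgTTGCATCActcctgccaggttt
SLC1A5 (chr19:46784890-46784925, minus strand): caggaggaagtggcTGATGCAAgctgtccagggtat
ASNS (chr7:97872455-97872490, minus strand): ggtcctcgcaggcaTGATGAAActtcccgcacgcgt
NARS1 (chr18:57621807-57621836, minus strand): agatctacgctctcTGATGCAAcgccggaa
The core began 4 bases before the RefSeq start site of MARS1 and 2 before that of CARS1, and ran across the site in both. It began 33 bases before the start of GARS1, 209 before that of CHAC1, 97 before that of SLC1A5 and 68 before that of ASNS. In NARS1 it began 14 bases after the start. The other members with a core were AARS1, IARS1, TARS1, SLC7A1, SLC3A2, SLC1A4 and ATF3.

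Library totals ran from 27702329 to 33965547 counts, and values are given below as CPM, counts relative to the library total after scaling by TMM factors. Summed CPM of 8 squamous markers was lower in TPA in each pair, and lowest in library 1 of both groups. The sum was 1402, 2981 and 2914 in DMSO 1, 2 and 3 and 1052, 2076 and 2100 in TPA 1, 2 and 3. KRT5 had 428, 1736 and 1780 CPM in DMSO and 66.7, 490 and 509 CPM in TPA. Its fall was larger than that of the sum in each pair. CDH1 was higher in each pair, with 615, 708 and 662 CPM in DMSO and 734, 1198 and 1179 CPM in TPA. Of the 7 tested (SOX2 was under the filter on low counts) none passed without the block, with 2 higher and 2 lower at an unadjusted p under 0.05, while DESeq2 called 1 higher and 1 lower. In the blocked fit KRT5 (-2.10, adjusted p 0.00151) and TP63 (-1.19, 0.0144) fell and KRT6A (3.35, 0.00153) rose, and the part of these changes in the members' results was not tested. Summed markers of fibroblasts, leukocytes and endothelial cells ran from 1.09 to 12.2 CPM per library, with DCN and KDR at 0 in all libraries. TPA 1 stood apart from the other TPA libraries: its log2 CPM correlated with DMSO 1 at 0.974, and with TPA 2 and TPA 3 at 0.927 and 0.936. Libraries TPA 2 and TPA 3 resembled each other (0.992), as did DMSO 2 and DMSO 3 (0.993). Because same-numbered libraries deviated from their group means together, values are also given from a fit with the library number as a block (the blocked fit), and from a blocked fit with each library's trend on transcript GC content removed (the GC-corrected blocked fit). A pair below is the TPA and the DMSO library of 1 number. Fewer cells of a kind and less RNA per cell cannot be told apart in these bulk libraries.

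TPA libraries had more RNA of most members than DMSO libraries, and this was large enough against the spread for 1 member without the block. By the quasi-likelihood test of edgeR, at 0.05 after Benjamini-Hochberg adjustment over all 21825 tested genes, MARS1 rose, no member fell and 44 did not pass. Of all tested genes, 0.861% passed as higher and 0.394% as lower. At an unadjusted p under 0.05, 23 members were higher and 0 lower, against 11.3% and 10.7% of all tested genes. DESeq2 called 21 members higher and 0 lower, against 6.83% and 3.18% of the genes it tested, and limma-voom called 2 higher and 0 lower, against 1.13% and 0.596%. With RLE factors in edgeR 2 were higher (MARS1 and CHAC1), against 1.05% of genes, with no filter on low counts the same 2, against 1.06%, and with a filter at 1 CPM MARS1, against 1.05%. The estimate was above 0 for 38 of the 45 members, and the median log2 fold change was 0.60, against -0.11 over all tested genes. Scaling by library size alone moved the median of all tested genes to -0.36 and left 37 members above 0.

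In the blocked fit 13 members rose and 1, NUPR1, fell, against 4.58% and 6.52% of all tested genes. These shares differed with GC content, split at the median of tested genes (48.2%). All 13 were among the 28 members over it, where 788 of 10512 tested genes rose and 324 fell. Of the 17 members at or under it 0 rose, where 192 of 10512 genes rose and 1042 fell. In the GC-corrected blocked fit 26 rose and 1 fell, against 9.18% and 10.8% of 21024 genes, and the 13 of the blocked fit were among the 26. In that fit the median over members was 0.53, and over all genes -0.15. With 1 library left out, the number of members that rose ran from 0 (without DMSO 2, DMSO 3, TPA 2 or TPA 3) to 30 (without TPA 1, when 6 fell, against 24.6% of genes higher and 27.8% lower). Without DMSO 1 the members that rose were CHAC1 and SESN2, against 0.449% of genes higher and 0.169% lower. Without TPA 2, 0.105% of all genes passed as higher and 0.00437% as lower, and without TPA 3, 0.00873% as higher. Without DMSO 2 or DMSO 3 no gene of the table passed, while 2612 and 2745 genes had an unadjusted p under 0.05. Every TPA library exceeded every DMSO library for 23 members, and for 0 members every TPA library was lower. Over all tested genes these shares were 14.3% and 15.2%.

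**Figure D1:**
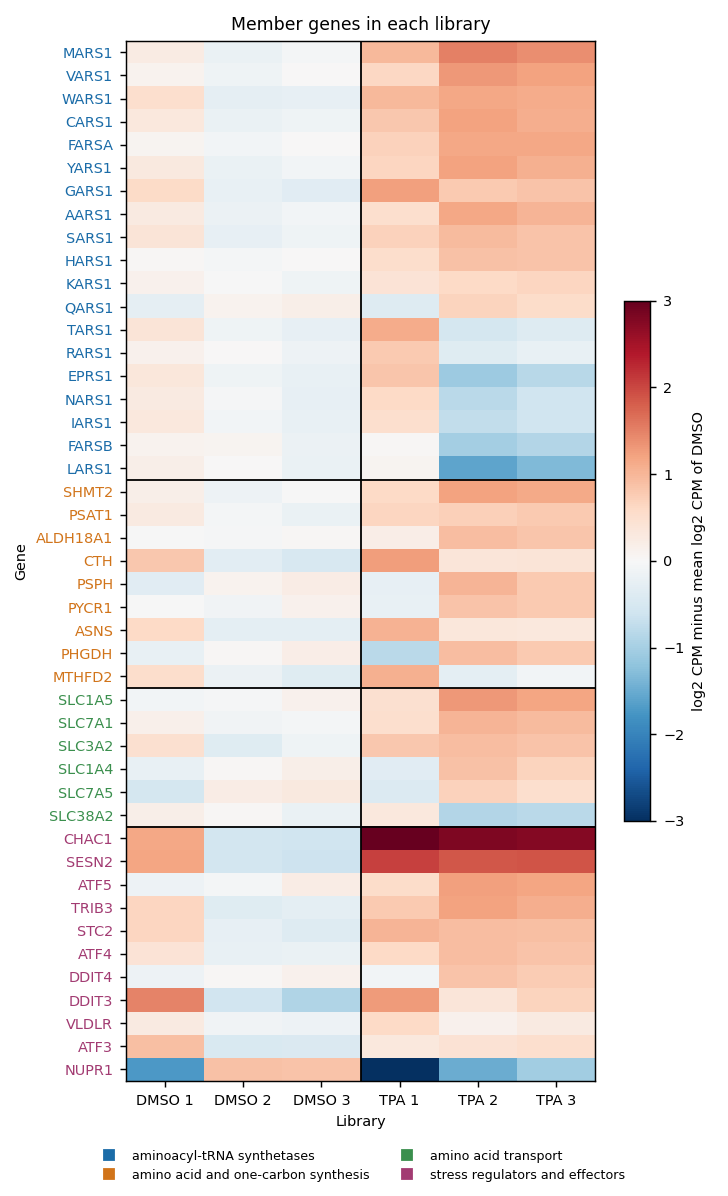
Level of each tested member (rows, coloured by role) in each library (columns), as log2(CPM + 0.1) minus the mean of the 3 DMSO libraries, with colours limited at 3 in both directions. The block of synthetases from TARS1 to LARS1 is near or above the DMSO mean in TPA 1 and below it in TPA 2 and TPA 3, while MARS1 to KARS1 are above it in all 3 TPA libraries.

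Of the 19 synthetases MARS1, which charges methionine, rose without the block, none fell and 18 did not pass. Of these 19, 7 rose and 0 fell in the blocked fit, and 12 rose and 0 fell in the GC-corrected blocked fit. Their median log2 fold changes in the 3 fits were 0.76, 0.75 and 0.54. At an unadjusted p under 0.05, 11 were higher and 0 lower. The summed CPM of the 19 ran from 4044 to 5350 in DMSO and from 6249 to 7073 in TPA libraries. Their DMSO levels per kilobase of exon ran from 13.4 CPM per kb for CARS1 to 86.4 for KARS1, with a median of 40.7.

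MARS1 (GRCh38, chromosome 12, 57475445 to 57517569) was at 329, 241 and 263 CPM in DMSO 1, 2 and 3 and at 539, 780 and 729 CPM in TPA 1, 2 and 3. All TPA libraries were above all DMSO libraries, with TPA 1 the lowest of its group. The means were 278 ± 45.5 and 683 ± 127 CPM (SD, n = 3), a 2.46-fold difference with a log2 fold change of 1.30 ± 0.23 (SE) and an adjusted p of 0.0495 by edgeR. The call was lost when any library other than TPA 1 was left out (adjusted p 0.0687 to 0.324) and with library size scaling (0.0537), and the adjusted p was 0.0159 in the blocked fit. MARS1 shares 355 exonic bases on the opposite strand with DDIT3, 5.05% of its exons, and the strand setting of the counting is not given in the sources used here.

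The other synthetases that rose in the blocked fit were VARS1, WARS1, CARS1, FARSA, YARS1 and GARS1, which charge valine, tryptophan, cysteine, phenylalanine (with FARSB), tyrosine and glycine. VARS1 had 162, 138 and 151 CPM in DMSO and 231, 372 and 347 CPM in TPA (log2 fold change 1.08 ± 0.24, adjusted p 0.0676 without and 0.0301 with the block). WARS1, which is also induced by interferon, had 192, 112 and 113 CPM in DMSO and 265, 302 and 291 CPM in TPA (1.04 ± 0.26, 0.0845 and 0.0299). In both genes TPA 1 was the lowest TPA library and DMSO 1 the highest DMSO library, and the groups did not overlap.

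CARS1 had 167, 116 and 121 CPM in DMSO and 233, 309 and 281 CPM in TPA, with a log2 fold change of 1.03 ± 0.23 (adjusted p 0.0691 without and 0.0322 with the block). FARSA had 144, 129 and 136 CPM in DMSO and 220, 302 and 305 CPM in TPA, with a log2 fold change of 1.02 ± 0.21 (0.0646 and 0.0288). Neither gene had overlapping groups, and TPA 1 was again the lowest TPA library. YARS1 had 259, 184 and 202 CPM in DMSO and 331, 495 and 448 CPM in TPA, with a log2 fold change of 0.98 ± 0.24 (0.0786 and 0.0434). GARS1 had 424, 243 and 225 CPM in DMSO and 672, 494 and 517 CPM in TPA, with a log2 fold change of 0.91 ± 0.29 (0.129 and 0.0307). In GARS1 library 1 was the highest of both groups, and the groups did not overlap.

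AARS1, SARS1, HARS1, KARS1 and RARS1, which charge alanine, serine, histidine, lysine and arginine, passed as higher only in the GC-corrected blocked fit among these 3 fits. Their log2 fold changes there were 0.54, 0.53, 0.72, 0.55 and 0.53, with adjusted p from 0.0179 to 0.044. RARS1 had 0.16 ± 0.33 without block or correction (adjusted p 0.803).

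LARS1 and FARSB, for leucine and for the other chain of the phenylalanine enzyme, had the lowest estimates of the synthetases. LARS1 had 369, 334 and 289 CPM in DMSO and 349, 109 and 131 CPM in TPA, with a log2 fold change of -0.75 ± 0.44 (adjusted p of 0.354, and 0.0663 with the block). FARSB had 63.1, 62.5 and 52.4 CPM in DMSO and 60.9, 29.2 and 32.3 CPM in TPA, with a log2 fold change of -0.54 ± 0.32 (0.36 and 0.135). In both genes TPA 1 lay among the DMSO libraries, and TPA 2 and TPA 3 lay below them. FARSA and FARSB, whose products form 1 enzyme, had estimates of 1.02 and -0.54, and after GC correction 0.64 and -0.17. Without TPA 1 both LARS1 and FARSB passed as lower.

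EPRS1 (glutamate and proline), IARS1 (isoleucine), NARS1 (asparagine), RARS1 and TARS1 (threonine) were higher in pair 1 and lower in pairs 2 and 3. EPRS1 had 511, 370 and 345 CPM in DMSO and 715, 188 and 225 CPM in TPA. IARS1 had 655, 490 and 444 CPM in DMSO and 739, 313 and 348 CPM in TPA. TARS1 had 258, 180 and 167 CPM in DMSO and 431, 136 and 152 CPM in TPA. TPA 1 was the highest of the 6 libraries in all 3 genes, and TPA 2 the lowest. QARS1 (glutamine) went the other way, with 164, 211 and 221 CPM in DMSO and 150, 311 and 290 CPM in TPA.

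Among the synthetases the direction in pairs 2 and 3 followed the GC content of the transcripts. The 7 synthetases with 41.4 to 44.3% GC were lower in both pairs, and the 12 with 46.6 to 62.6% GC were higher in both. This split was drawn after the values were seen. Of the other members with under 45% GC, SLC38A2 was lower in both pairs and MTHFD2 lower in pair 2 and higher in pair 3. PSAT1, CTH and VLDLR, with 42.3, 43.3 and 42.7% GC, were higher in both, by 0.77 and 0.98, 0.68 and 0.87, and 0.24 and 0.43 on the log2 scale. Across the 19 synthetases the Spearman correlation of GC content with the log2 ratio was 0.12, 0.83 and 0.78 in pairs 1, 2 and 3, where points of a pair share both libraries. Across all 45 tested members it was 0.10, 0.75 and 0.61. Across the 21024 tested genes with a GC value it was -0.11, 0.56 and 0.50, so a trend of this direction ran through the whole table in pairs 2 and 3. After correction the estimates of RARS1 and TARS1 were 0.53 and 0.34, and those of EPRS1, IARS1 and NARS1 lay near 0.

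**Figure D2:**
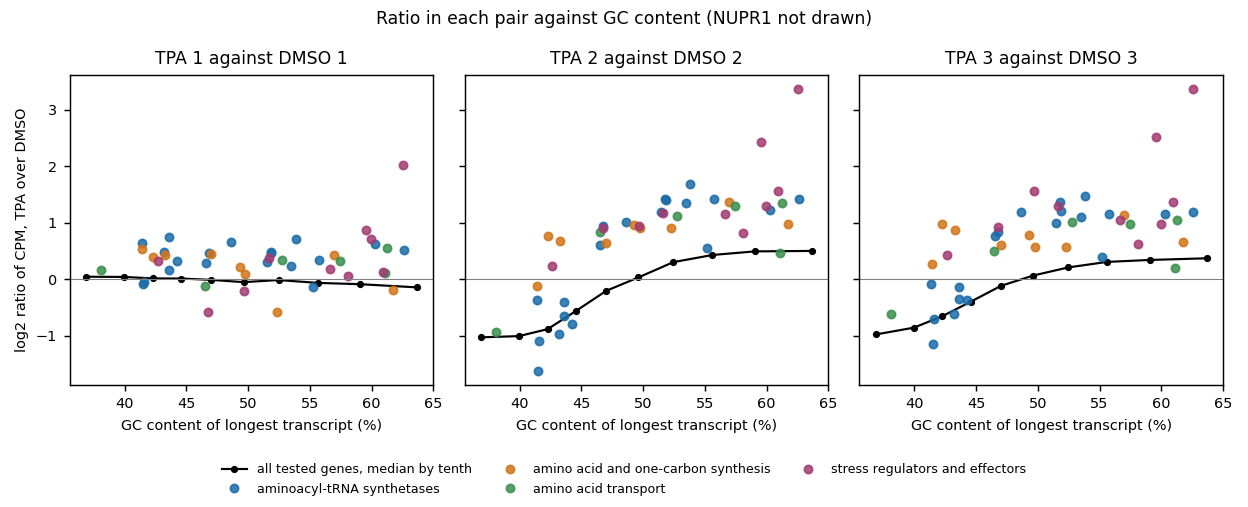
Log2 ratio of CPM in TPA over DMSO (y axis) against the GC content of each gene's longest transcript in percent (x axis) for each pair, with 1 point per member coloured by role and the median of all tested genes in 10 bins of GC content as a black line; NUPR1 is not drawn. The black line is nearly flat in pair 1 and climbs in pairs 2 and 3, and most members lie above it in all 3 panels.

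The synthetases EPRS1, IARS1, LARS1, QARS1, MARS1, KARS1 and RARS1 are known to sit in the multi-synthetase complex, a grouping made after the values were seen. Of these 7, 1 rose in the blocked fit and 3 in the GC-corrected one, and of the 12 others 6 and 9 did. Median log2 fold changes were 0.16 and 0.91 without the block, and -0.00 and 0.62 after GC correction. The difference between these groups was not tested.

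Of the 10 synthesis genes 9 were tested. None passed without the block, 1 (SHMT2) rose in the blocked fit and 5 rose in the GC-corrected blocked fit, and 0 fell in any of these fits. At an unadjusted p under 0.05, 3 were higher and 0 lower, and DESeq2 called 2 higher. Median log2 fold changes in the 3 fits were 0.60, 0.57 and 0.53. SHMT2, the mitochondrial enzyme that splits serine into glycine and a one-carbon unit, had 155, 124 and 137 CPM in DMSO and 208, 318 and 302 CPM in TPA. Its groups did not overlap, and the log2 fold change was 0.997 ± 0.23 (adjusted p 0.0723, and 0.039 with the block).

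In the serine branch, PHGDH, PSAT1 and PSPH catalyse successive steps. PSAT1 had 121, 97.0 and 88.1 CPM in DMSO and 160, 166 and 174 CPM in TPA, with no overlap (log2 fold change 0.70 ± 0.21, adjusted p 0.11, and 1.11 and 0.032 after GC correction). PHGDH had 42.6, 50.9 and 57.6 CPM in DMSO and 28.5, 94.98 and 86.2 CPM in TPA (0.47 ± 0.43, 0.547, and -0.02 after GC correction). TPA 1 was the lowest of the 6 libraries for PHGDH, while TPA 2 and TPA 3 were the highest. PSPH had an estimate of 0.60 ± 0.35 (0.355), and its copy PSPHP1 held 852 counts against 13852.

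ASNS, which makes asparagine and is a textbook ATF4 target, had 19.1, 10.2 and 10.3 CPM in DMSO and 26.2, 16.1 and 15.8 CPM in TPA. Each TPA library was above its own pair's DMSO library, but TPA 2 and TPA 3 lay below DMSO 1. The log2 fold change was 0.55 ± 0.35 (adjusted p 0.389, and 0.0338 after GC correction), and 44.6% of the exonic bases of ASNS overlap the locus AC079781.5. MTHFD2, of mitochondrial folate metabolism, had 252, 154 and 136 CPM in DMSO and 365, 143 and 164 CPM in TPA (0.31 ± 0.41, 0.689, and 0.69 and 0.0156 after GC correction). MTHFD2 was lower than DMSO in pair 2 only, by 0.11 on the log2 scale. CTH, which makes cysteine from cystathionine, had 64.5, 29.1 and 26.0 CPM in DMSO and 87.4, 46.7 and 47.6 CPM in TPA (0.60 ± 0.43, 0.44, and 0.97 and 0.0255 after GC correction). The proline enzymes ALDH18A1 and PYCR1 had estimates of 0.69 ± 0.24 (0.159) and 0.56 ± 0.32 (0.344).

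Among the 6 transporters none passed without the block, 1 (SLC1A5) rose in the blocked fit, 3 rose in the GC-corrected blocked fit and 0 fell. At an unadjusted p under 0.05, 3 were higher and 0 lower, and DESeq2 called 3 higher. SLC1A5, a carrier of glutamine and other neutral amino acids, had 244, 252 and 284 CPM in DMSO and 360, 639 and 588 CPM in TPA. All TPA libraries were above all DMSO libraries, and the log2 fold change was 1.03 ± 0.25 (adjusted p 0.0808, and 0.033 with the block). SLC7A1, a carrier of arginine and lysine, had 549, 457 and 469 CPM in DMSO and 700, 994 and 954 CPM in TPA (0.84 ± 0.21, 0.0802, and 0.49 and 0.0292 after GC correction).

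SLC7A5 and SLC3A2 encode the light and the heavy chain of the large neutral amino acid exchanger. SLC3A2 had 289, 161 and 190 CPM in DMSO and 361, 395 and 374 CPM in TPA, without overlap (0.82 ± 0.26, adjusted p 0.123, and 0.49 and 0.03 after GC correction). SLC7A5 had 464, 783 and 824 CPM in DMSO and 503, 1079 and 944 CPM in TPA (0.29 ± 0.34, 0.651, and -0.10 after GC correction). Library 1 was the lowest of both groups for SLC7A5, and the groups overlapped. SLC38A2, a sodium-coupled carrier of small neutral amino acids, had 902, 828 and 695 CPM in DMSO and 1006, 434 and 456 CPM in TPA (-0.35 ± 0.35, 0.578). Its transcript has the lowest GC content of the members (38.1%), it was higher in pair 1 and lower in pairs 2 and 3, and its estimate was 0.12 after GC correction. SLC1A4, a carrier of alanine, serine and cysteine, had an estimate of 0.49 ± 0.33 (0.421). Per kilobase, SLC7A5 (145 CPM per kb) and SLC38A2 (122) exceeded every synthetase in DMSO.

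Of the 11 stress regulators and effectors none passed without the block. In the blocked fit 4 rose (CHAC1, SESN2, ATF5 and STC2) and 1 fell (NUPR1), and in the GC-corrected blocked fit 6 rose and 1 fell. At an unadjusted p under 0.05, 6 were higher and 0 lower. DESeq2 called 6 higher, and limma-voom 1. Median log2 fold changes in the 3 fits were 0.77, 0.80 and 0.64.

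ATF4 itself (chromosome 22, 39519695 to 39522685) had 369, 236 and 241 CPM in DMSO and 417, 526 and 500 CPM in TPA. Every TPA library was above every DMSO library, with DMSO 1 the highest of DMSO and TPA 1 the lowest of TPA. The means were 282 ± 75 and 481 ± 56.9 CPM (SD, n = 3), and the log2 fold change was 0.77 ± 0.24 (adjusted p 0.124, 0.0724 with the block and 0.0527 after GC correction). ATF4 is controlled largely through translation, which counts of RNA do not measure. ATF5, a related factor, was low, with 3.06, 3.26 and 3.97 CPM in DMSO and 5.04, 8.13 and 7.92 CPM in TPA (1.03 ± 0.29, 0.0985, and 0.0359 with the block). The ATF5 groups did not overlap, and 21.2% of its exonic bases overlap NUP62.

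ATF3 and DDIT3, which encodes CHOP, are transcription factors downstream of ATF4. ATF3 had 259, 101 and 104 CPM in DMSO and 174, 190 and 198 CPM in TPA (0.28 ± 0.38, adjusted p 0.697). DDIT3 had 59.2, 14.1 and 11.3 CPM in DMSO and 51.3, 27.4 and 33.8 CPM in TPA (0.41 ± 0.63, 0.728). For both, DMSO 1 was the highest of the 6 libraries, pair 1 was lower in TPA, and pairs 2 and 3 were higher. The DDIT3 estimate was 1.56 without DMSO 1 (adjusted p 0.11), 0.10 without DMSO 2 (0.963), 0.04 without DMSO 3 (0.982), 0.23 without TPA 1 (0.786) and 1.42 with libraries 2 and 3 alone (1.04e-07). The ATF3 estimate was 0.88 without DMSO 1 (0.118), 0.06 without DMSO 2 (0.965), 0.07 without DMSO 3 (0.952) and 1.07 with libraries 2 and 3 alone (1.2e-08). That last fit keeps 2 libraries a group, and in it 32.2% of all tested genes passed as higher and 33.3% as lower. Of the exonic bases of DDIT3 27.2% overlap MARS1 on the opposite strand. TRIB3, a pseudokinase that feeds back on ATF4, had 178, 88.8 and 93.8 CPM in DMSO and 196, 264 and 243 CPM in TPA, with no overlap (0.96 ± 0.32, 0.137, and 0.66 and 0.044 after GC correction).

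CHAC1 (chromosome 15, 40952962 to 40956519), which breaks down glutathione, had the highest estimate of the 45 members. It had 9.81, 2.96 and 2.83 CPM in DMSO and 39.8, 31.0 and 29.97 CPM in TPA. Each TPA library was above each DMSO library, and library 1 was the highest in both groups. The means were 5.20 ± 3.99 and 33.6 ± 5.41 CPM (SD, n = 3), a 6.46-fold difference with a log2 fold change of 2.69 ± 0.52. Its adjusted p was 0.0583 by edgeR without the block and 0.000623 with it, and it passed under 9 of 15 alternatives.

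SESN2 (chromosome 1, 28259527 to 28282491), a leucine sensor that restrains mTORC1, had 64.0, 19.1 and 18.3 CPM in DMSO and 117, 104 and 104 CPM in TPA. The TPA libraries lay close together, DMSO 1 stood above the other DMSO libraries, and the groups did not overlap. The log2 fold change was 1.68 ± 0.50 (adjusted p 0.112, and 0.00809 with the block). STC2, a secreted glycoprotein, had 112, 60.9 and 54.96 CPM in DMSO and 146, 137 and 135 CPM in TPA (0.88 ± 0.30, 0.152, and 0.0428 with the block). NUPR1, a small chromatin-associated stress protein, had 10, 82 and 75 counts in DMSO and 0, 12 and 18 counts in TPA. DMSO 1 lay below TPA 2 and TPA 3 for NUPR1, so the groups overlapped, while each pair was lower in TPA. The log2 fold change was -2.38 ± 1.03 (0.23, and 0.0139 with the block). DDIT4, an inhibitor of mTORC1, and VLDLR, a lipoprotein receptor, had estimates of 0.56 ± 0.28 (0.292) and 0.33 ± 0.24 (0.456). VLDLR rose after GC correction (0.69, 0.0399).

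**Figure D3:**
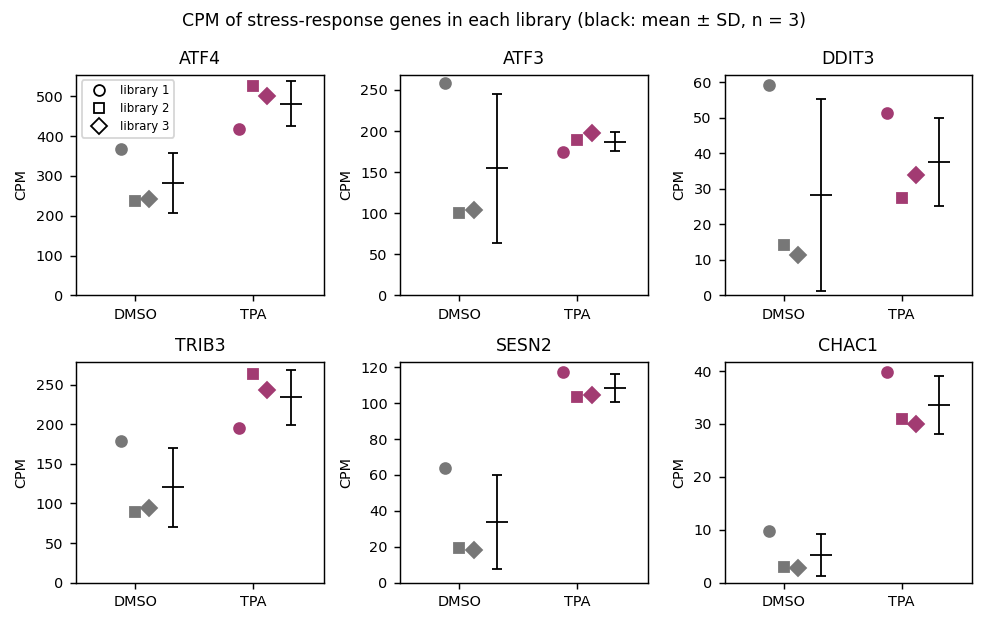
CPM of 6 stress genes in each library, with circles, squares and diamonds for libraries 1, 2 and 3, and black bars for the mean ± SD of each group (n = 3). In ATF3 and DDIT3 the DMSO 1 circle is the highest point, and in SESN2 and CHAC1 all TPA points lie above all DMSO points.

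DMSO 1 was the highest of the DMSO libraries for 34 of the 45 members, against 42.0% of all tested genes. The median ratio of DMSO 1 to the mean of DMSO 2 and DMSO 3 was 1.31 over members and 1.93 over the stress genes. The part of this library's higher levels in the results was not tested beyond leaving it out. Within pairs the median log2 ratio of the members was 0.33, 0.94 and 0.87 in pairs 1, 2 and 3. TPA was higher in all 3 pairs for 29 members, against 22.6% of all tested genes, and lower in all 3 for 3 members, against 29.6%. With libraries 2 and 3 alone, 36 members passed as higher and 7 as lower, against 32.2% and 33.3% of all tested genes.

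**Figure D4:**
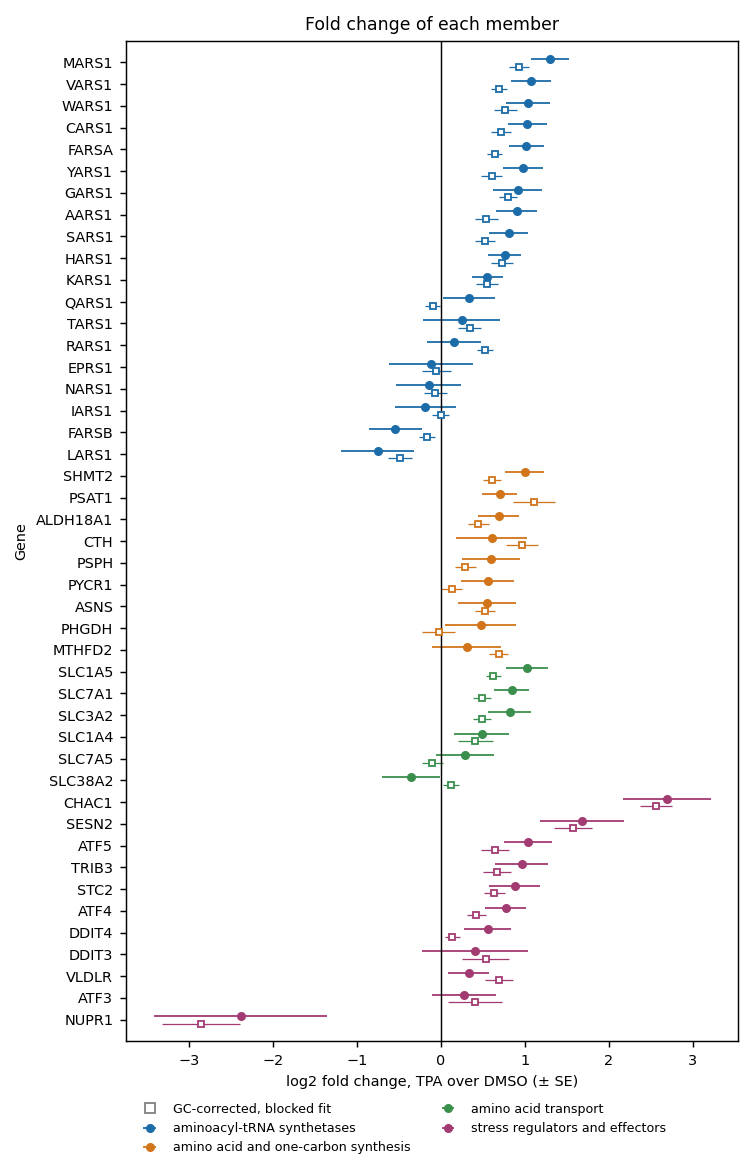
Log2 fold change of TPA over DMSO (x axis) with its SE for the 45 tested members (y axis), coloured by role, with filled circles for the fit without block and open squares for the GC-corrected blocked fit. CHAC1 at 2.69 and NUPR1 at -2.38 lie at the ends, and the SE is smaller in the GC-corrected blocked fit for most members.

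Members with and without the C/EBP-ATF core in their promoter windows were set side by side. Of the 14 with it, 5 rose in the blocked fit and 9 in the GC-corrected one, with a median log2 fold change of 0.83 without the block. Of the 24 tested members whose windows lacked it, 5 and 14 rose, with a median of 0.58. The difference was not tested.

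The wider pathway was followed in 66 further genes in 5 lists, of which 63 were tested; SLC7A3, SLC43A1 and FGF21 were not. None passed by edgeR without the block, where 0.861% of all tested genes passed as higher and 0.394% as lower. At an unadjusted p under 0.05, 16 of the 63 were higher and 2 lower, against 11.3% and 10.7% of all tested genes. DESeq2 called 10 higher and 0 lower, against 6.83% and 3.18% of the genes it tested. In the blocked fit 6 rose and 1 fell, against 4.58% and 6.52% of all tested genes. In the GC-corrected blocked fit 10 rose and 4 fell, against 9.18% and 10.8%. The 17 mitochondrial synthetases had a median log2 fold change of 0.05 without the block and -0.08 after GC correction, where 1 rose and 2 fell. Of these TARS2 had the lowest p (0.86 ± 0.30, adjusted p 0.159). The 5 partners of the synthetase complex and remaining cytosolic synthetases had a median of -0.10 without the block and 0.26 after GC correction. Of these, 0 passed in any of the 3 fits. AIMP2, a scaffold of the complex, had 0.56 ± 0.26 (0.262).

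Of 12 genes around eIF2 phosphorylation, 1 rose in the blocked fit. This was PPP1R15A, which directs a phosphatase to eIF2 and had 461, 145 and 149 CPM in DMSO and 815, 726 and 715 CPM in TPA (1.58 ± 0.46, adjusted p 0.108, and 0.00901 with the block). Of 7 ATF4 partner factors, 3 rose and 0 fell in the blocked fit. FOSL1, an AP-1 subunit, had 300, 121 and 117 CPM in DMSO and 680, 578 and 552 CPM in TPA (1.75 ± 0.39, 0.0681, and 0.00392 with the block). In both genes DMSO 1 was again the highest DMSO library, and the groups did not overlap. Of 22 further ATF4 targets tested, 2 (SLC6A9 and BCAT1) rose and 1 (CCPG1) fell in the blocked fit. The median log2 fold change of this list was 0.23 without the block, with 13 estimates above 0 and 9 below. CCPG1 had -1.11 without and -1.28 with the block (adjusted p 0.281 and 0.0188). The glycine carrier SLC6A9 had 38.1, 32.5 and 31.8 CPM in DMSO and 61.7, 93.9 and 87.6 CPM in TPA (1.25 ± 0.24, 0.0581, and 0.0174 with the block), and its groups did not overlap.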

How the data were processed

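Total RNA of KYSE150 cells was sequenced in 3 TPA and 3 DMSO libraries. The deposited table holds the authors' raw counts of reads per gene symbol, not normalized. Per the submitters' processing notes, HISAT2 2.1.0 and HTSeq 0.12.4 were used with hg38 and GRCh38. Which annotation release, strand setting and read layout applied was not given in the sources used here, so reads of overlapping genes cannot be told apart. Groups and numbers came from the sample titles and treatment labels.

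The main test was the quasi-likelihood F-test of edgeR 4.0.16 under R 4.3.3 on all 6 libraries with TMM factors, filterByExpr, the group as only term and Benjamini-Hochberg adjustment at 0.05 over 21825 genes. CPM values are counts over the TMM-scaled library size. A count of 0 allows up to 0.0915 to 0.109 CPM per library (3 counts), for counting error only. Members and lists were chosen with earlier results of these data known. Every member is named. Values per library are given for members that passed with or without the block, the 2 highest and 2 lowest estimates of each role, and ATF4, ATF3, DDIT3, ASNS and WARS1. For each pathway list, the gene with the lowest p is named. Other values per library were added after they were seen.

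Deviations from the group means correlated between same-numbered libraries at 0.55, 0.34 and 0.37. The numbers were treated as pairs on the strength of the match between DMSO 1 and TPA 1, since no label states a shared day. Crosswise, DMSO 2 with TPA 3 (0.356) and DMSO 3 with TPA 2 (0.374) correlated as highly. Deviations cancel out within a group, so a match of library 1 by itself favours positive values among libraries 2 and 3. The values of libraries 2 and 3 therefore cannot show that they are pairs. Alternatives were RLE factors, library size alone, no filter, a filter at 1 CPM, DESeq2 1.42.0, limma-voom (limma 3.58.1), the block, the block with GC correction, libraries 2 and 3 alone, and each library left out. GC correction removed a spline (5 degrees of freedom) of each library's log2 CPM on the GC content of the longest GENCODE 29 transcript, found for 21024 tested genes (96.3%). Gene coordinates are of GENCODE 29 on GRCh38 and promoter windows of RefSeq. Some promoter sequences are not reported here.

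The fits were tested on simulated data. Of genes changed 2-fold, 4-fold and 8-fold, the fit without block called 5.97%, 77.6% and 98.5% over 21172 genes, the blocked fit 34.3%, 100% and 100% over 21192, and the GC-corrected blocked fit 47.8%, 100% and 100% over 20514. False calls made up 5.47%, 0.637% and 3.51% of their calls. For the GC-corrected blocked fit a smooth trend on GC content was planted in TPA 2 and TPA 3, of the kind the correction removes. The simulated counts held no other effect of the library number, and their spread was estimated with the same block setting as the fit. Recovery therefore cannot show whether blocking on these numbers, or the GC correction, is right for these data.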

Additional observations from a re-analysis of the deposited data

How the results depend on the processing

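Counts of calls depended on the fit. Of all tested genes, 188 passed as higher and 86 as lower. These counts were 429 and 202 with no filter, 1635 and 761 with DESeq2, 1000 and 1423 with the replicate block, 1930 and 2270 with the block and GC correction, and 7216 and 7475 with libraries 2 and 3 alone. Lower calls were 219 with library size scaling and 130 with limma-voom. Leaving out 1 library gave 0 to 5577 higher and 0 to 6297 lower, the highest both without TPA 1. Members that rose numbered 2 with RLE factors, with no filter and with limma-voom, 0 with library size scaling (0.577% of all genes; at an unadjusted p under 0.05 17 members and 6.04% of all genes), 21 with DESeq2, 13 with the replicate block, 26 with GC correction and 36 with libraries 2 and 3 alone. They numbered 0 to 30 with 1 library left out, and at an unadjusted p under 0.05 15 without DMSO 2 or DMSO 3 (5.89% and 6.27% of all genes), and 21 without TPA 2 or TPA 3 (6.79% and 6.13%). Members that fell numbered 1 with the replicate block and with GC correction, 7 with libraries 2 and 3 alone, and 0 to 6 with 1 library left out. Pathway list members that rose numbered 4 with no filter, 10 with DESeq2, 1 with limma-voom, 6 with the replicate block, 10 with GC correction, 31 with libraries 2 and 3 alone and 0 to 27 with 1 library left out. Those that fell numbered 1 with the replicate block, 4 with GC correction, 18 with libraries 2 and 3 alone and 0 to 17 with 1 library left out. Over all tested genes 32.2% passed as higher and 33.3% as lower with libraries 2 and 3 alone. Without TPA 1, which gave the 27 and the 17, these shares were 24.6% and 27.8%. In the fits that leave out 1 library, the arm that lost it keeps 2.

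The median of the synthetases was 0.50 with library size scaling and 1.04 with libraries 2 and 3 alone. That of the synthesis genes was 0.33 and 0.93, and 0.51 to 0.94 with 1 library left out. The estimate changed sign in QARS1 (-0.095, from 0.33), PHGDH (-0.024), SLC7A5 (-0.10) and SLC38A2 (0.12) with the block and GC correction. With libraries 2 and 3 alone it changed sign in RARS1 (-0.072) and TARS1 (-0.11). For libraries left out, signs were checked only in the members whose values per library followed the rule above. Among those the estimate changed sign in MTHFD2 without TPA 1, with a range of -0.13 to 0.63 over libraries left out. Within the 250 bases before the start alone, 7 members (17.9%) held the whole C/EBP-ATF core, against 3.89% of genes. In CARS1, MARS1 and SLC1A4 the core ran across the start site, and in TARS1, SLC7A1, NARS1 and SLC3A2 it began after the start. The causes of the changes between fits were not tested. Without the block, simulated 2-fold changes were called in 5.97% of cases, so differences of that size were mostly below what 3 libraries a group could show.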

Other observations

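BCAT1, which transaminates branched-chain amino acids, had a log2 fold change of 3.32 ± 1.15, with 1.89 ± 2.30 CPM in DMSO and 18.8 ± 22.4 CPM in TPA (SD, n = 3). Library 1 was the highest of both groups, the groups did not overlap, and the log2 ratio was 3.28, 2.78 and 3.73 in pairs 1, 2 and 3. BCAT1 had an adjusted p of 0.154 by edgeR without the block and 0.000139 with it. CEBPB, a dimer partner of ATF4, averaged 82.6 ± 42.4 CPM over DMSO and 242 ± 16.2 CPM over TPA libraries (SD, n = 3), with a log2 fold change of 1.55 ± 0.36 and adjusted p of 0.0707 and 0.0105. Both genes were picked after their values were seen.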
